A study of Mus musculus with 8 samples.

Results

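The 10 genes described here mark monocyte subsets or encode lysozymes, and they were taken from the deposited table by symbol, with every row of each symbol kept. They are the lysozyme genes Lyz1 and Lyz2, the patrolling monocyte genes Ace, Treml4, Cx3cr1 and Ear2, the classical monocyte genes Ly6c2 and Ccr2, the related Ly6c1, and Csf1r, which is shared by monocytes and macrophages. Together they have 18 transcripts, of 23517 transcripts of 17738 genes in the whole table, and all 18 passed the filter on low values. The RNA came from whole spleens of male C57BL/6 mice, 8 to 12 weeks old and untreated, 4 of them wild-type and 4 carrying the TTPΔARE allele. In this strain the AU-rich element in the 3′ UTR of Zfp36, the gene of tristetraprolin (TTP), is deleted, so that the transcript is more stable. TTP is a protein that binds AU-rich elements of other transcripts and speeds their decay. The allele is present in every cell of the animal, so the comparison was not restricted to monocytes, and the labels do not state the zygosity. Replicates are named here in the order of their records, and the labels give no batch or litter.

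Monocytes of the mouse fall into a classical subset, which carries much Ly6C and the chemokine receptor CCR2 and moves into inflamed tissue, and a patrolling subset, which carries little Ly6C and much CX3CR1 and surveys the vessel wall. The spleen holds a reservoir of both, beside macrophages of the red pulp and marginal zone. Classical monocytes can convert into patrolling ones, a step that requires the nuclear receptor Nr4a1. Both subsets carry the receptor encoded by Csf1r. Lysozyme cleaves the cell wall of bacteria; Lyz2 is its main form in myeloid cells, and Lyz1 is best known from Paneth cells of the gut.

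The lysozyme and Ly6c genes are near-identical neighbours, which bears on how far a read can be assigned to either copy. The first 120 bases of each coding sequence are shown for that reason, from the reference transcripts of GENCODE M21 (GRCm38), with the bases that differ between the copies in capitals.

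Lyz1: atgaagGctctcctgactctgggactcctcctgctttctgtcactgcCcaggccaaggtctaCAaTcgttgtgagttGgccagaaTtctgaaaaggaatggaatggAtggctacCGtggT

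Lyz2: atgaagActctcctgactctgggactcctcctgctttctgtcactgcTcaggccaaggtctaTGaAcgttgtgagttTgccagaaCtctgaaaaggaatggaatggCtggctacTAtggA

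Ly6c1: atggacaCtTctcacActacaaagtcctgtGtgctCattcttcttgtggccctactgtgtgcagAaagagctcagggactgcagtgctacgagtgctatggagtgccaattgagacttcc

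Ly6c2: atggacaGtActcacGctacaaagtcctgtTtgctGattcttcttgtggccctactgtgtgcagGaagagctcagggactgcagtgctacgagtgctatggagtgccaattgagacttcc

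The Lyz1 and Lyz2 starts differed at 11 of these bases, and over the 447 bases of the coding sequence 95.1% were identical, with a longest identical run of 118 bases. The Ly6c1 and Ly6c2 starts differed at 6 bases, and 97.7% of the 396 coding bases were identical, with a run of 188. Of all windows of 50 bases in the Lyz2 transcript, 15.4% also occurred in Lyz1, and 16.1% of those of Lyz1 occurred in Lyz2. For Ly6c2 the share found in another gene was 33.0%, nearly all in Ly6c1, and for Ly6c1 it was 36.7%. Ear2 shared 41.5% of its windows, mostly with Ear10 and Ear1, while Ace, Treml4 and Csf1r shared none with another gene. How reads that match several places were counted is not given in the sources used here, so the levels of Lyz1, Ly6c1, Ly6c2 and Ear2 are uncertain by what their copies could have lent or taken.

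The 2 lysozyme genes lie side by side on chromosome 10, both on the minus strand, with Lyz2 at chr10:117277541-117282272 and Lyz1 at chr10:117287795-117292868 (RefSeq genes, GRCm38.p6). Their promoter windows, from 250 bases before to 50 after the start, are shown because both genes moved together below. The sequences are from RefSeq on the same build, and capitals mark ACTTCCT, the reverse complement of AGGAAGT. Those 7 letters contain GGAA, the core bound by PU.1 and other ETS factors of myeloid cells. Lyz2 (chr10:117282223-117282522, minus strand) and Lyz1 (chr10:117292819-117293118, minus strand) read as follows.

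Lyz2 promoter: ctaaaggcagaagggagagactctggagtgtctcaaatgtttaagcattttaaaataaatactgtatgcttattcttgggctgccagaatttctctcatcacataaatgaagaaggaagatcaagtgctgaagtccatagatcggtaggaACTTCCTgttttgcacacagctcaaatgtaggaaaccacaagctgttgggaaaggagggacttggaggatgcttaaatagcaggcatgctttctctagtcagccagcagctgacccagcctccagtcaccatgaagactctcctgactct

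Lyz1 promoter: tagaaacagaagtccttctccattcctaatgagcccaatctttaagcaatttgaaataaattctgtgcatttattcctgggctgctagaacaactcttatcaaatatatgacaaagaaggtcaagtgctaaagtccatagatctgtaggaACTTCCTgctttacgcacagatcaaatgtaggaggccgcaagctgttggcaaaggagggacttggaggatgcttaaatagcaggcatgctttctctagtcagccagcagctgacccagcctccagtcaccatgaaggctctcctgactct

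The 2 windows were 82.5% identical, with a longest identical run of 86 bases, and in both the motif began 100 bases before the start. AGGAAGT on either strand was also present in windows of Ly6c1 and Ly6c2, so that 5 of the 12 windows of members held it, against 9.35% of all 32851 promoter windows of that length. These windows belong to 4 of the 9 members with an entry, which form 2 pairs of near-identical copies and are not separate observations. A match is a description of letters only, and overlap with other motifs was not examined. No promoter entry was found for Csf1r.

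TTP is known to bind UAUUUAU in 3′ UTRs, and the DNA letters TATTTAT were therefore searched on the transcript strand. The longest annotated 3′ UTR of 2 of the 10 genes held them, against 29.9% of 11230 tested genes. These shares were not adjusted for length. The longest 3′ UTR had a median of 1353 bases over the tested genes. It had 177 to 930 bases in Ear2, Ly6c2, Ly6c1, Lyz1, Lyz2, Treml4 and Ace, and 1669 to 2701 in Csf1r, Cx3cr1 and Ccr2. The sites in Ace and Ccr2 are shown with 9 bases on each side and the heptamer in capitals. The Ace site lay at position 851 of 930 bases, and the Ccr2 site at position 920 of the 1744 bases in the 3′ UTR of NM_009915, the deposited row, whose gene has a longest annotated 3′ UTR of 2701 bases.

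Ace site: ttatctacaTATTTATgtagtaaat

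Ccr2 site: cttacatgaTATTTATaaaattatt

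The 3′ UTRs of Lyz1 and Lyz2 held no TATTTAT, and none of the 10 genes held the nonamer TTATTTATT, which 7.85% of tested genes did.

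Levels are FPKM, fragments scaled to transcript length and library size, and can be set side by side between genes because they are per length. Depth estimated from the steps between low values was 28.4 to 32.3 M fragments per sample. On that estimate the lead transcript of each gene, the row with the highest mean, rested on 139 to 29081 fragments a sample, whereas Ly6c1 NM_001252057 rested on 20.9 to 28.3. Summed levels of 9 B cell markers were 858 to 1054 FPKM and of 14 splenic macrophage markers 486 to 711 FPKM over all spleens, which fits the labelled tissue. Differences are on the log2(FPKM + 0.5) scale, TTPΔARE minus wild-type, which understates those of low transcripts. Adjusted p-values are from limma, two-sided, with Benjamini-Hochberg adjustment over 16608 transcripts and a threshold of 0.05. Exact p-values are from two-sided exact permutation tests of the mean FPKM over 70 assignments, whose smallest value is 0.0286. The labels do not say whether samples were handled together, so p-values measure only the spread between these spleens.

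Zfp36 itself, which checks the labels, stood at 37.9, 42.1, 44.9 and 36.4 FPKM in the wild-type spleens and at 57.5, 46.1, 55.1 and 52.9 FPKM in the TTPΔARE spleens. The groups did not overlap (log2 difference 0.39, SE 0.0848, limma adjusted p = 0.0323, exact p = 0.0286). Zfp36 no longer passed limma when any of 5 spleens was removed (wild-type replicates 1 and 4, TTPΔARE replicates 1, 3 and 4). The deletion lies in the 3′ UTR, outside the coding part, so this level is a check of the allele's effect on its transcript and not of the deletion.

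In wild-type spleen Lyz2 was by far the most abundant of the 10 genes, at 652 ± 86.8 FPKM (SD, n = 4), 7.57 times the level of Csf1r at 86.2 ± 5.75. Lyz1 followed at 41.8 ± 7.14, Ly6c2 at 19.6 ± 2.14, Ear2 at 14.1 ± 3.32 and Ccr2 at 9.27 ± 1.78 FPKM. The lowest 4 were Cx3cr1 at 7.20 ± 0.800, Ly6c1 at 6.62 ± 0.398, Treml4 at 5.07 ± 0.498 and Ace at 4.31 ± 0.842 FPKM. Each level here is that of the lead row alone, so the order is one of single rows. Ly6c1 has 5 rows and Treml4 has 4. The wild-type means of their other rows were 1.51 to 5.18 FPKM and 3.72 to 5.02 FPKM. Sums over rows would raise these genes and could change their place. The ranges of the 4 wild-type spleens did not overlap between Lyz2, Csf1r, Lyz1 and Ly6c2. They overlapped between Ly6c2 and Ear2, Ear2 and Ccr2, Ccr2 and Cx3cr1, Cx3cr1 and Ly6c1, and Treml4 and Ace. Within each wild-type spleen, however, Ly6c2 stood above Ear2, and Ear2 above Ccr2. In the other pairs the order differed between wild-type spleens, so it is not fixed by these data. Ace was the lowest in both groups and Lyz2 the highest.

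**Figure D1:**
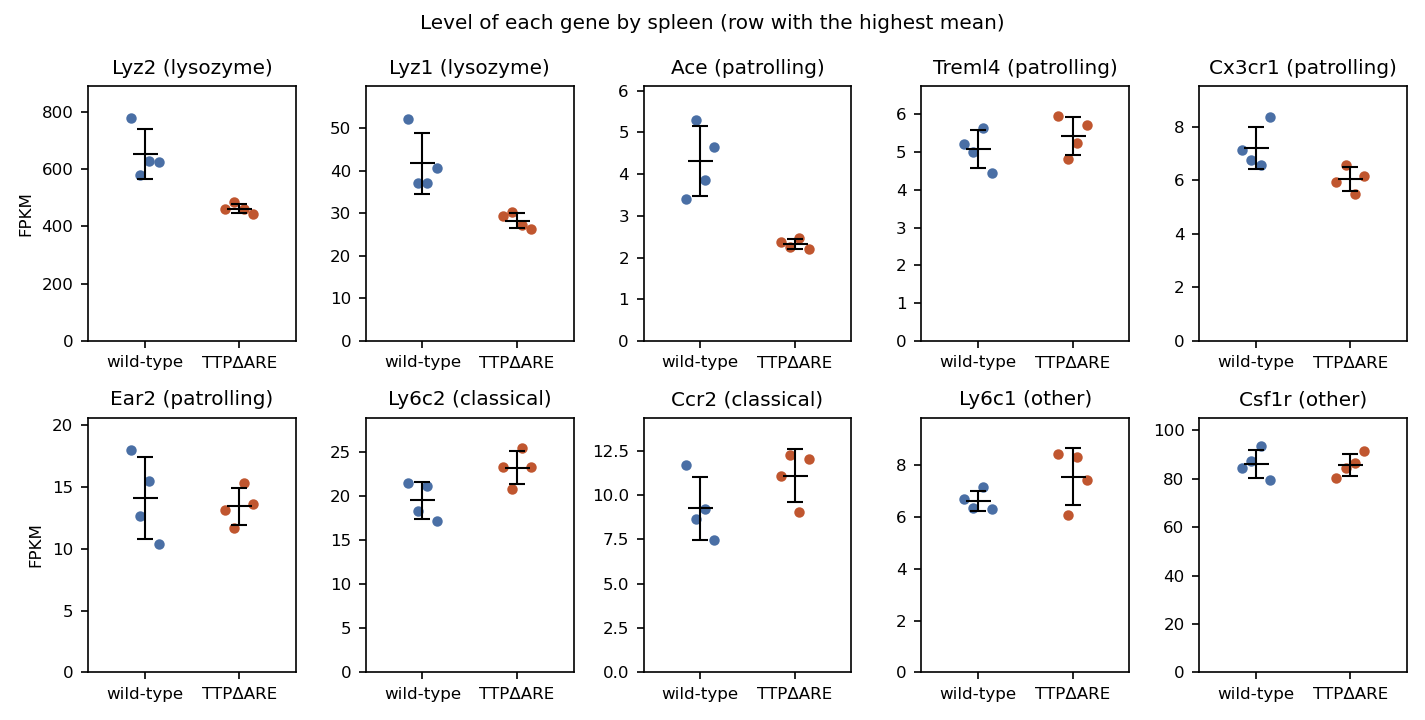
FPKM (vertical axes, each starting at 0) of the highest row of each of the 10 genes in the 4 wild-type and 4 TTPΔARE spleens; points are single spleens, and horizontal marks with bars are means ± SD. The groups do not overlap for Lyz2, Lyz1, Ace and Cx3cr1, and they overlap for the other 6 genes.

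Between the genotypes the lysozymes and Ace were lower in TTPΔARE spleens, and no member was called higher. Of the 18 transcripts, 4 fell, those of Lyz2, Lyz1 and both rows of Ace, and the other 14 did not pass the test (limma, Benjamini-Hochberg). Over all 16608 tested transcripts 1.99% fell, 2.01% rose and 4.0% passed in either direction. At an unadjusted p under 0.05 (limma) there were 5 lower and 4 higher member transcripts, 9 of 18, against 21.1% of all tested transcripts. With the lead row of each gene there were 5 of 10, against 21.8% of all genes. In 5 of the 18, which include Cx3cr1, all TTPΔARE spleens lay below all wild-type spleens, as did 5.99% of all transcripts, and in none did they all lie above, as did 6.53% (12.5% in either direction). The median difference of the 18 transcripts, 9 of which are rows of Treml4 or Ly6c1, was 0.08 on the log2 scale, and that of all tested transcripts 0.003. With the lead row of each gene the median was -0.028, with 4 of 10 differences above 0, against 0.005 over all genes. Without wild-type replicate 4, or without TTPΔARE replicate 3 or 4, 2 of the 4 transcripts remained called, those of Ace. With the erythroid marker level of each spleen as a covariate none of the 4 was called. Red cell genes differed between the groups, and the summed FPKM of 5 globin transcripts were 5974 to 11227 in wild-type and 14478 to 22082 in TTPΔARE spleens. With the covariate 0 of all transcripts were called higher and 2 lower. In whole spleen, fewer cells of a type and less RNA per cell cannot be told apart for any of the genes below.

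**Figure D2:**
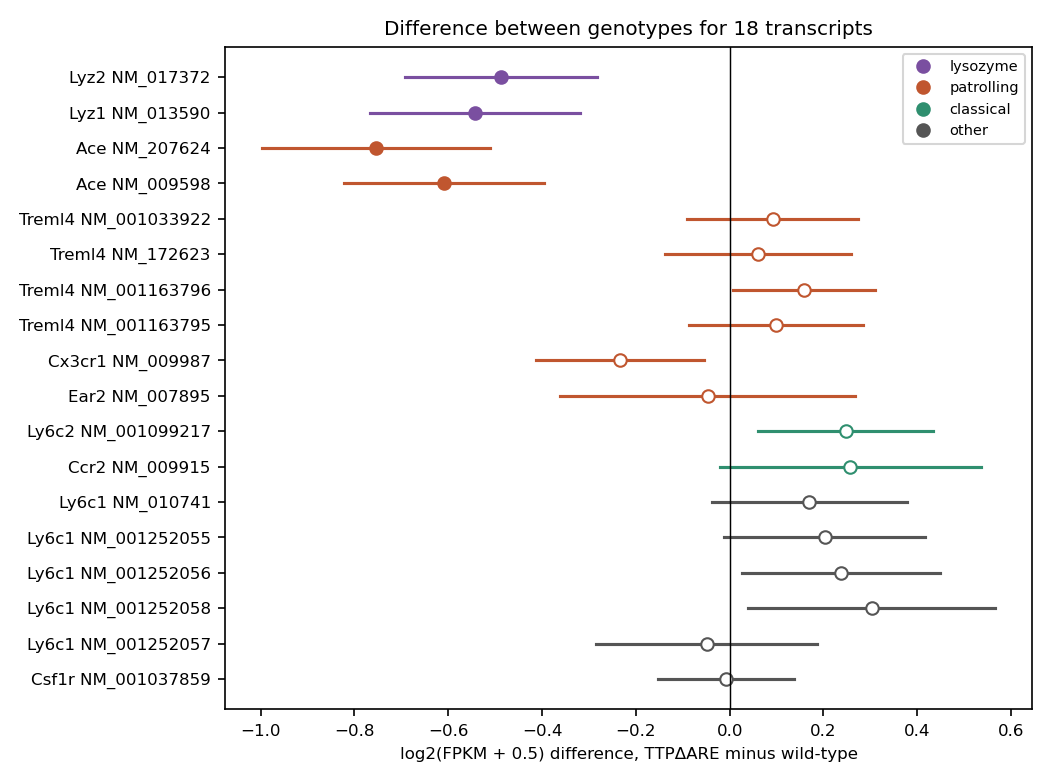
Log2 difference (horizontal axis, TTPΔARE minus wild-type, log2(FPKM + 0.5)) of the 18 transcripts with 95% confidence intervals from limma; filled points passed an adjusted p of 0.05, and colours give the gene's role. Only Lyz2, Lyz1 and the 2 rows of Ace are filled, between -0.75 and -0.49.

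Lyz2 was measured at 778, 579, 630 and 624 FPKM in wild-type replicates 1 to 4 and at 462, 484, 460 and 444 FPKM in the TTPΔARE replicates. The TTPΔARE spleens lay close together and all below the wild-type ones, among which replicate 1 was the highest. Lyz2 fell by 0.49 on the log2 scale (95% interval -0.69 to -0.28), from 652 ± 86.8 to 462 ± 16.3 FPKM (SD, n = 4 each), a 1.41-fold lower mean (limma adjusted p = 0.0177, exact permutation p = 0.0286). Lyz2 no longer passed when wild-type replicate 4 (adjusted p = 0.0522), TTPΔARE replicate 3 (0.0658) or TTPΔARE replicate 4 (0.0570) was removed, and the difference ranged from -0.54 to -0.40 over the 8 fits that left out a spleen. With the erythroid covariate it was -0.42 (adjusted p = 0.310).

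Lyz1 stood at 52.3, 37.2, 37.3 and 40.6 FPKM in the wild-type spleens and at 29.4, 30.2, 27.3 and 26.3 FPKM in the TTPΔARE spleens. Again wild-type replicate 1 was the highest and the groups did not overlap. Lyz1 fell by 0.54 on the log2 scale (95% interval -0.77 to -0.32), from 41.8 ± 7.14 to 28.3 ± 1.82 FPKM, a 1.48-fold lower mean (limma adjusted p = 0.0170, exact permutation p = 0.0286). It lost its call without the same spleens as Lyz2 (adjusted p = 0.05005 without wild-type replicate 4, 0.0620 and 0.0554 without TTPΔARE replicates 3 and 4). With the erythroid covariate it stood at -0.38 (adjusted p = 0.323).

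The ratio of the 2 lysozymes overlapped between the groups. Lyz2 was 15.7 ± 0.863 times Lyz1 in wild-type and 16.4 ± 0.596 times in TTPΔARE spleens, and Lyz1 made up 6.01% and 5.77% of the sum of both. Over the 8 spleens log2 values of Lyz1 and Lyz2 had a Pearson correlation of 0.986, and of 0.944 after each group's mean was removed. The points share the genotype difference, the library of each spleen and the reads that fit both copies. The windows above give the shared part of each transcript, not of its reads. Lyz2 was far more abundant, so its reads could weigh more on Lyz1 than the share of windows. How much of the Lyz1 level, its difference and this correlation came from Lyz2 reads was not tested.

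Ace encodes angiotensin-converting enzyme, which removes a dipeptide from angiotensin I and is found on patrolling monocytes, macrophages and endothelium. It has 2 rows: NM_207624, the long somatic form with both catalytic domains, and NM_009598, the short form, which starts inside the gene and is known from testis. Their starts lie 7241 bases apart on chromosome 11 (gene at chr11:105967948-105989964, plus strand, GRCm38.p6). The long row stood at 3.40, 5.30, 3.86 and 4.66 FPKM in the wild-type and at 2.37, 2.24, 2.48 and 2.19 FPKM in the TTPΔARE spleens. Every TTPΔARE spleen was below every wild-type spleen, and the wild-type spleens varied more. The long row fell by 0.75 on the log2 scale (95% interval -0.997 to -0.51), from 4.31 ± 0.842 to 2.32 ± 0.128 FPKM, a 1.86-fold lower mean (limma adjusted p = 0.00699, exact permutation p = 0.0286).

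The short row stood at 1.92, 2.73, 1.92 and 2.02 FPKM and at 1.18, 1.23, 1.19 and 1.28 FPKM. It fell by 0.61 on the log2 scale (95% interval -0.82 to -0.40, limma adjusted p = 0.00924, exact permutation p = 0.0286). The 2 rows are not independent, since 91.7% of the 50-base windows of the short form also lie in the long one, and their ratio was 2.01 ± 0.225 in wild-type and 1.90 ± 0.168 in TTPΔARE spleens. Both Ace calls held when any of the 8 spleens was left out, the long row between -0.85 and -0.66. With the erythroid covariate the long row was -0.71 (adjusted p = 0.132) and the short row -0.50 (adjusted p = 0.209). Of the 5287 exonic bases of Ace, 295 overlap Gm11651 on the other strand, and the strand setting of the counts is not given in the sources used here. Ace is also an endothelial gene: summed over 10 endothelial markers the levels were 110 to 128 FPKM in wild-type and 132 to 139 FPKM in TTPΔARE spleens, higher where Ace was lower, and their part in the Ace result was not tested.

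**Figure D3:**
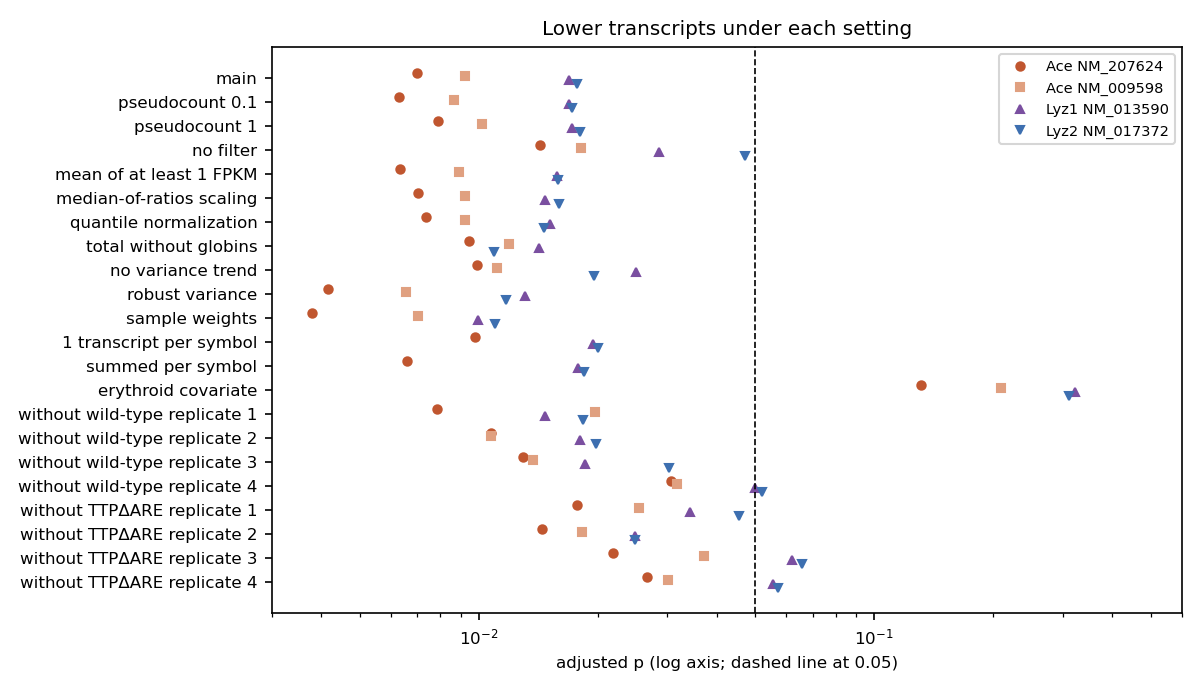
Adjusted p from limma (horizontal log axis, dashed line at 0.05) of the 4 lower transcripts under the main setting, 13 other settings and 8 fits that each left out 1 spleen. The Ace rows stay left of the line except with the erythroid covariate, and Lyz1 and Lyz2 cross it also without wild-type replicate 4 or TTPΔARE replicate 3 or 4.

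The other 3 patrolling genes did not follow Ace past the threshold. Cx3cr1 encodes the receptor of fractalkine, a chemokine held on endothelium that supports the survival of patrolling monocytes. It stood at 7.11, 6.75, 6.58 and 8.35 FPKM in the wild-type and at 5.94, 6.57, 5.49 and 6.15 FPKM in the TTPΔARE spleens. The groups just failed to touch, at 6.58 against 6.57 FPKM. The difference was -0.23 on the log2 scale (95% interval -0.41 to -0.05) and did not pass the threshold (limma adjusted p = 0.133, exact permutation p = 0.0286).

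Treml4, a receptor of the TREM family that is found on patrolling monocytes and splenic dendritic cells, had positive differences in all its rows, none of which passed. Its lead row stood at 5.21, 5.01, 5.64 and 4.44 FPKM in the wild-type and at 5.95, 4.82, 5.25 and 5.72 FPKM in the TTPΔARE spleens, and the groups overlapped. The difference was 0.09 on the log2 scale (95% interval -0.09 to 0.27, limma adjusted p = 0.586). The other 3 rows were at 0.06, 0.16 and 0.10, with adjusted p of 0.760, 0.217 and 0.557. These rows share 56.6 to 95.1% of their windows with each other and are not separate measurements, and NM_172623 and NM_001163795 changed sign with the erythroid covariate.

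Ear2 encodes an eosinophil-associated ribonuclease that in mouse blood also marks patrolling monocytes. It stood at 18.03, 12.6, 15.5 and 10.4 FPKM in the wild-type and at 13.1, 11.7, 15.3 and 13.6 FPKM in the TTPΔARE spleens. The TTPΔARE values all lay within the wild-type range. The difference was -0.05 on the log2 scale (95% interval -0.36 to 0.27, limma adjusted p = 0.893), and it took the other sign when wild-type replicate 1, wild-type replicate 3 or TTPΔARE replicate 2 was removed, so these data do not settle a direction for Ear2. Its copies were low, Ear1 at 0.302 to 2.09 FPKM and Ear10 at no more than 0.396 FPKM. Of 5 tested eosinophil markers 1 fell, Prg3 (log2 difference -0.60), and 4 did not pass, all with positive differences. Of these Prg2 had the lowest p, at 8.60 ± 4.36 and 15.96 ± 3.13 FPKM (log2 difference 0.97, limma adjusted p = 0.0958). Their summed level was 20.7 to 37.0 FPKM in wild-type and 31.3 to 38.6 FPKM in TTPΔARE spleens.

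The classical genes had higher means in TTPΔARE spleens but neither passed. Ly6c2, which encodes the Ly6C protein that defines the subset, stood at 21.5, 18.3, 21.2 and 17.2 FPKM in the wild-type and at 23.3, 20.8, 25.5 and 23.4 FPKM in the TTPΔARE spleens. The groups overlapped only through TTPΔARE replicate 2, which lay below wild-type replicates 1 and 3. The difference was 0.25 on the log2 scale (95% interval 0.06 to 0.43, limma adjusted p = 0.128, exact permutation p = 0.0857). Ccr2, the receptor by which classical monocytes leave the marrow, stood at 11.7, 8.66, 9.20 and 7.49 FPKM and at 11.1, 12.3, 9.03 and 12.0 FPKM. Its groups overlapped broadly, and the difference was 0.26 on the log2 scale (95% interval -0.02 to 0.54, limma adjusted p = 0.275, exact permutation p = 0.171).

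Ly6c1 encodes a second Ly6C protein and is also known from endothelium. Its lead row stood at 6.70, 6.34, 7.15 and 6.29 FPKM in the wild-type and at 8.41, 6.06, 8.32 and 7.43 FPKM in the TTPΔARE spleens. TTPΔARE replicate 2 was the lowest of all 8, as it was the lowest of its group for Ly6c2. The difference was 0.17 on the log2 scale (95% interval -0.04 to 0.38, limma adjusted p = 0.340). Of the other 4 rows, 3 were between 0.20 and 0.30 and NM_001252057 was at -0.05, and none passed (adjusted p between 0.179 and 0.847). Ly6c2 was 2.95 ± 0.201 times the lead row of Ly6c1 in wild-type and 3.11 ± 0.277 times in TTPΔARE spleens, with overlapping ranges. The other 4 Ly6c1 rows are left out of this ratio, so it is not one of whole genes.

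Csf1r encodes the receptor of colony-stimulating factor 1 and was the member with the difference closest to 0. It stood at 84.4, 87.3, 93.4 and 79.6 FPKM in the wild-type and at 80.2, 84.5, 86.6 and 91.4 FPKM in the TTPΔARE spleens. The groups covered nearly the same range, and the difference was -0.01 on the log2 scale (95% interval -0.15 to 0.14, limma adjusted p = 0.966). Over all its GENCODE transcripts, 873 of 5774 exonic bases overlap Hmgxb3 on the other strand, which was at 2.26 to 2.99 FPKM. The RefSeq gene of Csf1r ends 138 bases before Hmgxb3 and does not overlap it. Relative to Csf1r in the same spleen, Lyz2 was at 760% ± 120.4 in wild-type and 541% ± 42.3 in TTPΔARE spleens, Lyz1 at 48.8% ± 9.91 and 33.2% ± 3.70, and Ace at 5.02% ± 1.09 and 2.72% ± 0.246. For these 3 genes the groups did not overlap on that scale either. For Cx3cr1 they did, at 8.42% ± 1.49 and 7.06% ± 0.652, as they did for Treml4, Ear2, Ly6c2, Ccr2 and Ly6c1.

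Set against each other within a spleen, the patrolling genes stood lower relative to the classical ones in the TTPΔARE group. The mean of log2(FPKM + 0.5) over Ace, Treml4, Cx3cr1 and Ear2 minus that over Ly6c2 and Ccr2 was -1.13, -0.82, -0.97 and -0.76 in wild-type replicates 1 to 4 and -1.39, -1.47, -1.31 and -1.46 in the TTPΔARE replicates. The groups did not overlap, and their means, -0.92 ± 0.167 and -1.41 ± 0.0747, lay 0.49 apart. Without Ace the values were -0.82, -0.70, -0.71 and -0.61 against -1.01, -1.10, -0.94 and -1.05, still without overlap, and the means, -0.71 and -1.02, were closer. Leaving out Ace, the patrolling mean alone overlapped between the groups (2.97 to 3.22 and 2.95 to 3.06), and so did the classical mean (3.57 to 4.04 and 3.98 to 4.11). TTPΔARE minus wild-type, the patrolling mean without Ace differed by -0.06 and the classical mean by 0.25. Most of the contrast without Ace therefore lay on the classical side. The members were chosen with results of these data known, so this contrast is given as values, without a test.

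**Figure D4:**
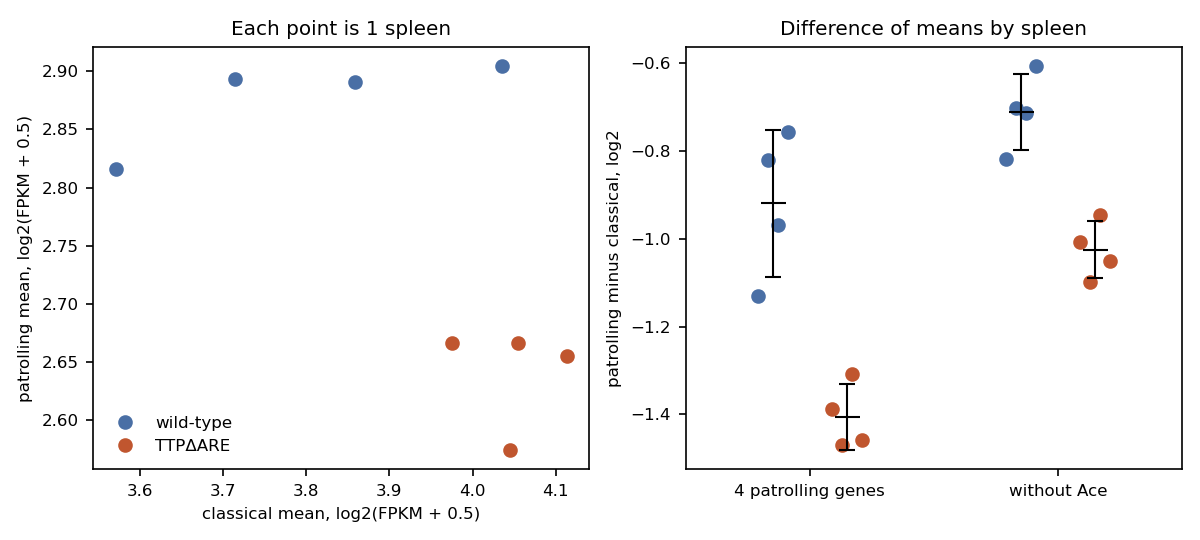
Left, mean log2(FPKM + 0.5) of the 4 patrolling genes (vertical axis) against that of the 2 classical genes (horizontal axis), 1 point per spleen; right, their difference per spleen with all 4 patrolling genes and without Ace, with means ± SD. The TTPΔARE spleens lie at -1.47 to -1.31 and the wild-type spleens at -1.13 to -0.76 with all 4 genes.

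The 2 wild-type spleens at the ends were often the same: replicate 1 was the highest of the wild-type group in 5 of the 10 members and replicate 4 the lowest in 6. Within groups the genes did not all move as a block. After removal of the group means, Lyz2 and Ace had a Pearson correlation of -0.82 over the 8 spleens although both were lower in TTPΔARE spleens, and Ear2 and Ly6c2, of opposite subsets, had one of 0.96. These were the lowest and the highest such coefficient among all pairs of the 10 members. Each rests on 8 points less the group means, and genes of 1 spleen share its library. The genes most like Lyz2 over the 8 spleens, apart from Lyz1 itself, were Gmfg (Pearson correlation 0.973) and Gcfc2 (0.969). Those most like Ace were Dgkd (0.982), Cyth1 (0.979) and Foxp1 (0.978), and those most like Ly6c2 were Serpinb6a (0.981), Rsu1 (0.966) and Ptp4a1 (0.965), among rows whose mean was 1 FPKM or more. Gmfg had means of 11.9 and 9.36 FPKM, Dgkd of 46.5 and 37.9 FPKM and Serpinb6a of 12.3 and 15.1 FPKM in wild-type and TTPΔARE spleens.

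Other genes of the 2 subsets were read from lists, with 1 transcript per gene, of which 1.91% fell, 2.26% rose and 4.17% passed in either direction over all 12410 genes (groups without overlap in 5.88% lower, 6.78% higher and 12.7% in all). Of 16 other patrolling monocyte genes 3 fell, 1 rose and 12 did not pass (limma, Benjamini-Hochberg), with a median of -0.07 against 0.005 for all genes. Eno3, a muscle-type enolase used as a marker of the subset, fell by 0.50 on the log2 scale, from 3.74 ± 0.356 to 2.49 ± 0.148 FPKM (limma adjusted p = 0.00776), and kept its call without each spleen in turn. Nr4a1, on which patrolling monocytes depend and which is also an immediate early gene of lymphocytes, fell by 0.38, from 15.1 ± 1.21 to 11.4 ± 0.969 FPKM (limma adjusted p = 0.0217). Nr4a1 no longer passed once wild-type replicate 2, wild-type replicate 4 or TTPΔARE replicate 4 was removed (adjusted p = 0.0510, 0.0648 and 0.0612). The apolipoprotein gene Apoc2 fell by 0.75, from 0.994 ± 0.340 to 0.372 ± 0.0698 FPKM (limma adjusted p = 0.0227), which no longer passed once wild-type replicate 1 or 4 was removed, nor without TTPΔARE replicate 1, 3 or 4. Pglyrp1, a peptidoglycan recognition protein that neutrophils also store, rose from 8.62 ± 0.925 to 11.2 ± 1.07 FPKM (log2 difference 0.36, limma adjusted p = 0.0428), and this call held only without wild-type replicate 1 or TTPΔARE replicate 2 among the 8 spleens left out, and not without the filter (adjusted p = 0.0596) or the variance trend (0.0563). Itgax, the most abundant gene of the list, was at 21.4 and 21.5 FPKM. With the erythroid covariate none of these calls held (limma adjusted p between 0.102 and 0.393). The differences were then -0.52 for Eno3, -0.51 for Nr4a1, -0.48 for Apoc2 and 0.36 for Pglyrp1. Of these only that of Apoc2 was smaller in size than without the covariate, and the change was not tested.

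Of 13 tested classical monocyte genes other than the members none passed in either direction (limma), and 3 had an unadjusted p under 0.05, against 21.8% of all 12410 genes, with a median of 0.08. Ms4a4c was at -0.39 and Thbs1 at 0.59 on the log2 scale (adjusted p = 0.0581 and 0.153), and F13a1, a transglutaminase subunit, at 0.31 (adjusted p = 0.169). Plac8, the most abundant of the list, was at 145.0 and 138.3 FPKM.

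**Figure D5:**
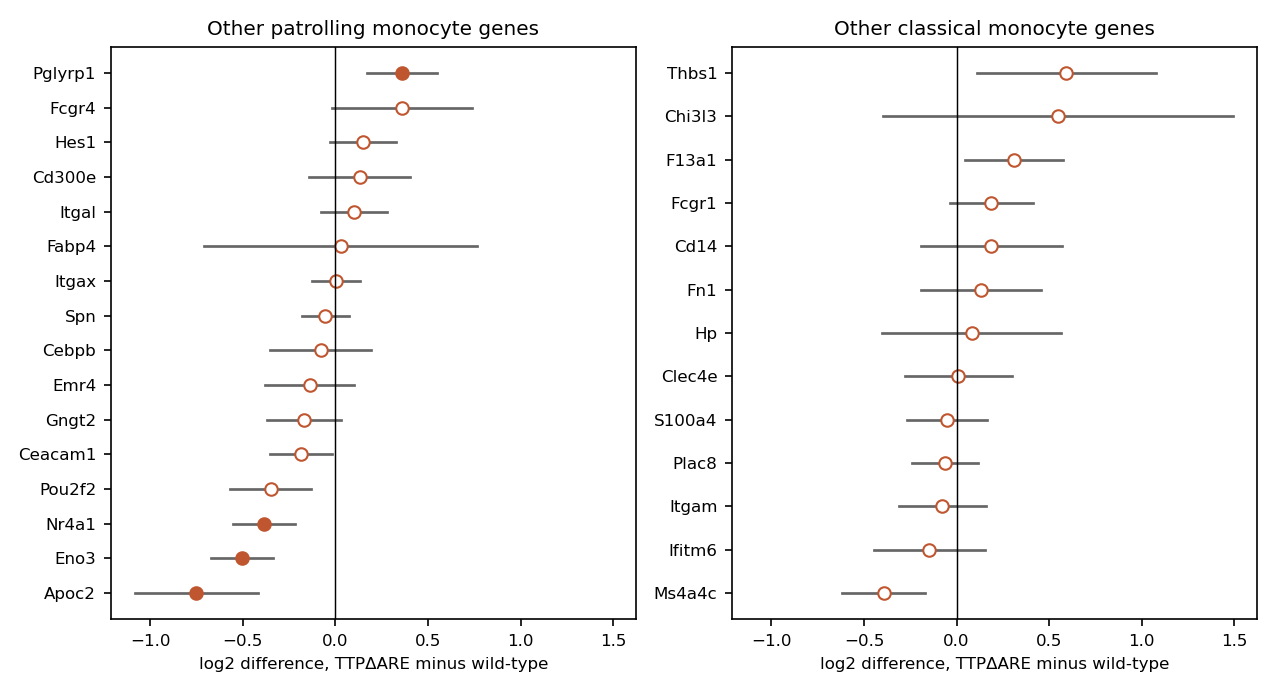
Log2 difference (horizontal axes, TTPΔARE minus wild-type) with 95% confidence intervals from limma for 16 other patrolling and 13 other classical monocyte genes, filled where the adjusted p was under 0.05. Filled points are Pglyrp1, Nr4a1, Eno3 and Apoc2 on the left, where Pglyrp1 alone is above 0, and none on the right.

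Among 8 tested genes of monocyte growth factors, chemokines and other ligands, and of receptors, none passed in either direction (limma). Of these 3 had an unadjusted p under 0.05 (21.8% over all genes), and the median was 0.17. Csf2rb, which encodes the shared beta chain of the GM-CSF receptor and had the lowest p, was at 17.3 ± 0.564 and 19.5 ± 0.293 FPKM without overlap (log2 difference 0.17, limma adjusted p = 0.0824). Csf1, which encodes the ligand of the Csf1r product, was at 6.48 ± 1.11 and 8.15 ± 1.47 FPKM (log2 difference 0.31, limma adjusted p = 0.206). Agtr1a, a receptor of angiotensin II, the product of ACE, was at 5.75 ± 0.751 and 7.89 ± 1.80 FPKM (0.41, adjusted p = 0.141). Of 12 monocyte transcription factors 1 fell, Nr4a1. Maf was at 14.9 and 16.8 FPKM and Irf8, the most abundant, at 94.1 and 100.5 FPKM, and neither passed (adjusted p = 0.137 and 0.402).

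In the families of the members, 0 of 7 tested Ly6 genes passed (2 at an unadjusted p under 0.05, against 21.8% over all genes), and 0 of 3 ribonuclease genes of the Ear family did (0 at an unadjusted p under 0.05), both by limma. Of 5 tested TREM family genes 2 rose: Trem1, which amplifies inflammatory signals in myeloid cells, from 0.578 ± 0.144 to 1.05 ± 0.152 FPKM (log2 difference 0.53, adjusted p = 0.0289), and the platelet gene Treml1, from 2.23 ± 0.676 to 4.05 ± 0.844 FPKM (0.75, adjusted p = 0.0415). Trem1 lost its call without 5 of the 8 spleens and Treml1 without 6, wild-type replicate 4 and TTPΔARE replicates 3 and 4 among them in both cases. Treml1 also lost it without the filter (adjusted p = 0.0663), without the variance trend (0.0507) and with a robust variance (0.0587). Treml2, next to Treml4 on chromosome 17, was at 13.7 and 13.4 FPKM.

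Markers of other cells that hold lysozyme or these surface genes were read beside them. Of 14 neutrophil markers 2 rose, Mmp8 and Retnlg. In all 13 differences were positive, 4 had an unadjusted p under 0.05 (limma, 21.8% over all genes), and the median was 0.26. The summed level of these markers was 111 to 310 FPKM in wild-type and 160 to 279 FPKM in TTPΔARE spleens, an overlapping range beside the lower Lyz2. Of 14 markers of splenic macrophages, not all of them of the red pulp, 2 rose, Emr1 (log2 difference 0.36) and the scavenger receptor Marco (0.46). Their sums were 486 to 710 and 654 to 711 FPKM, 11 differences were positive, and 7 had an unadjusted p under 0.05 (21.8% over all genes). Of 14 dendritic cell markers 4 rose, Esam, Flt3, Itgae and Xcr1, with sums of 670 to 793 and 701 to 811 FPKM. Of their differences 12 were positive, and 9 had an unadjusted p under 0.05 (21.8% over all genes). None of 9 NK cell markers passed (2 at an unadjusted p under 0.05, against 21.8% over all genes), and their sums were 40.8 to 63.8 and 53.0 to 95.4 FPKM. Of 9 B cell markers Cd22 and Fcer2a fell, with sums of 985 to 1054 and 858 to 926 FPKM. Of their differences 8 were negative, and 7 had an unadjusted p under 0.05 (21.8% over all genes). Of 10 endothelial markers 4 rose, Esam, Gpihbp1, Kdr and Sox18, with sums of 110 to 128 and 132 to 139 FPKM. Of their differences 9 were positive, and 7 had an unadjusted p under 0.05 (21.8% over all genes). Of 26 erythroid markers 3 rose, Alas2, Bpgm and Tspan33, but all 26 differences were positive, 23 had an unadjusted p under 0.05, and the median was 1.22 on the log2 scale, with sums of 141 to 329 and 289 to 543 FPKM. Marco, Flt3, Sox18, Kdr, Bpgm and Tspan33 lost their calls in 1 to 4 of the 12 processing alternatives. Of the 29 genes called in all lists beside the members, 6 kept their call without each spleen in turn, 23 lost it without at least wild-type replicate 4 or TTPΔARE replicate 3 or 4, and none kept it with the erythroid covariate. The part of these cells in the results for Lyz2, Lyz1 and Ace was not tested.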

How the data were processed

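RNA-seq of 8 mouse spleens was used as deposited by the authors, in FPKM per RefSeq transcript. BWA and the build mm10 are named by the submitters' processing notes; how fragments were counted, on which annotation and strand, is not given in the sources used here. Groups follow the genotype labels. FPKM do not suit a count model. Depth was estimated from steps between values of at most 0.1 FPKM: 54.7 to 58.4% of them were whole within 0.05 at the best depth, too few to rebuild counts. Rows with a mean of 0.5 FPKM or more (16608) entered limma 3.58.1 (R 4.3.3; lmFit, eBayes, variance trend) on log2(FPKM + 0.5), two-sided, adjusted by Benjamini-Hochberg; this step was tested on simulated data. Sequences are from GENCODE M21 and RefSeq (GRCm38.p6); the 5 Ly6c1 accessions match 3 GENCODE transcripts. Members and lists were chosen with earlier results of these data known. Some list genes are not reported here. Named from each list are up to 4 genes (the 3 of lowest p and the most abundant), plus called genes, chosen after their values were seen where they fall outside that rule. The 3 transcripts most similar to Lyz2, Ace and Ly6c2 are named, predicted genes left out. Alternatives were other pseudocounts, filters, scalings, variance settings, sample weights, an erythroid covariate, 1 or summed rows per gene, a threshold of 0.1, and leaving out each spleen.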

Additional observations from a re-analysis of the deposited data

Results flagged for a closer look

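In 3 of 38 groups of 4 spleens (19 transcripts, Zfp36 included, in 2 genotypes) 1 spleen stood apart from the other 3 by a gap that took up most of the group's range, and chance gives about 1 in 20 groups. The short Ace row, NM_009598, was at 2.73 FPKM in wild-type replicate 2 and at 1.92 to 2.02 FPKM in the other wild-type spleens. Treml4 NM_001163796 was at 4.01 FPKM in TTPΔARE replicate 2 and at 4.49 to 4.52 FPKM in the others of its group. Ly6c1 NM_001252056 was at 3.46 FPKM in wild-type replicate 1 and at 2.70 to 2.82 FPKM in the other wild-type spleens.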

How the results depend on the processing

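No paired analysis was possible because the labels give no replicate numbers, and the numbers used here follow only the order of the records. With the erythroid covariate the member transcripts called lower went from 4 to 0: Lyz2 was -0.42, Lyz1 -0.38, Ace -0.71 (long row) and -0.50 (short row) on the log2 scale, and Zfp36 0.28. With it all transcripts called were 0 higher and 2 lower, and genes of the other lists 0 and 0. Over the 12 processing alternatives without that covariate the 4 calls held wherever the row was fitted. Leaving out 1 spleen gave 2 to 4 lower member transcripts and 0 higher, and where 2 remained both were rows of Ace. The differences ranged from -0.54 to -0.40 for Lyz2, -0.59 to -0.43 for Lyz1 and 0.34 to 0.45 for Zfp36. The long and short Ace rows ranged from -0.85 to -0.66 and from -0.65 to -0.51. The patrolling minus classical difference ranged from -0.56 to -0.43. Over all transcripts, leaving out 1 spleen gave 93 to 437 higher and 104 to 332 lower (333 and 331 with all spleens). Over the other lists the counts were 3 to 44 and 3 to 10 (22 and 7). At a threshold of 0.1 all transcripts gave 726 and 636 and the lists 15 lower; 1 transcript per symbol gave 215 lower; without the filter the lists gave 13 higher. Scaling to a total without globins gave 453 higher and 230 lower. Signs changed for rows that did not pass: Treml4 NM_172623 (-0.016 with the covariate, -0.022 to 0.13 with 1 spleen left out, below 0 without wild-type replicate 4), Treml4 NM_001163795 (-0.0083 with the covariate), Ear2 (0.012 with sample weights; -0.18 to 0.076 with 1 spleen left out, above 0 when wild-type replicate 1, wild-type replicate 3 or TTPΔARE replicate 2 was removed), Ly6c1 NM_001252057 (0.076 with the covariate, -0.11 to 0.028 with 1 spleen left out, above 0 without wild-type replicate 1) and Csf1r (0.027 with quantile normalization, 0.021 without globins, -0.045 to 0.031 with 1 spleen left out, above 0 without wild-type replicate 3 or TTPΔARE replicate 1). The cause of these shifts was not tested. Rows of few fragments, such as Ly6c1 NM_001252057, limit what these depths can show.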
